A study of Mus musculus with 2 samples.

Results

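The genes described here are 9 interferon-stimulated genes of the mouse, Isg15, Ifit1, Ifit2, Ifit3, Irf7, Bst2, Oasl2, Rsad2 and Usp18, whose transcription rises when a cell is exposed to interferon. They were chosen by name, as the gene identifiers whose symbol in the deposited tables is one of these, and all 9 were found among the 32285 identifiers. RNA was measured across liver sections by spatial transcriptomics (10x Visium), in which each spot of a slide captures the 3′ ends of transcripts from the tissue above it and counts them as unique molecular identifiers (UMIs). The mice were male C57BL/6J, bought at 5 weeks of age and given 1 week to acclimate. The NCD group ate normal chow, and the HFD group ate a high-fat diet with 60% fat for 14 weeks. Both groups then received distilled water by mouth for 8 weeks, and livers were perfused before they were frozen and sectioned at 10 µm. Of each group 1 section was analysed, so diet, animal and section cannot be told apart. Whether both sections lay on the same slide is not known here. The study's other treatment groups were not analysed here.

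Over tissue lay 3692 spots in the NCD section, which held 29037988 UMIs with a median of 4188 in a spot. The HFD section held 72118803 UMIs in 3594 such spots, with a median of 18549. The deeper HFD section therefore shows a member in more spots at the same level, so levels are given as UMIs of a gene per 1000000 UMIs (CPM), pooled over the spots of a section. Spots off tissue held 6870975 UMIs in the NCD section, up to 50757 in a spot, and 2177155 in the HFD section. The part of this in the ratios of HFD to NCD was not tested. The sections share 3173 spot barcodes, which come from the fixed layout of the slide. The labels call the samples liver but also name a stem cell line and immune cells, and the data go against the latter. Markers of hepatocytes summed to 82801 CPM in the NCD and 75919 CPM in the HFD section, against 17.8 and 12.5 CPM for markers of T cells and 3.79 and 2.90 CPM for markers of B cells. A spot covers several cells, so more cells of a type and more RNA per cell cannot be told apart. Ranges given after a value are exact 95% intervals, which cover counting error only and neither animals nor slides.

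As background, type I interferons bind a receptor made of Ifnar1 and Ifnar2, whose kinases pass the signal on to a complex that includes Stat2 and Irf9. This complex binds interferon-stimulated response elements (ISRE) before the genes it switches on, while interferon gamma has a receptor of its own and acts through another element, GAS. In the liver both hepatocytes and non-parenchymal cells can respond, and the response is best known from viral hepatitis.

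Isg15 encodes a small protein like ubiquitin that is attached to other proteins. Its 271 UMIs in the NCD section made 9.33 CPM (8.25 to 10.5), and its 1637 UMIs in the HFD section made 22.7 CPM (21.6 to 23.8). The log2 ratio of HFD to NCD was 1.28 (1.10 to 1.47). Usp18 encodes the protease that removes Isg15 from proteins and that also dampens signalling at the type I receptor. Its level was 5.79 CPM (4.94 to 6.73) in the NCD and 21.1 CPM (20.02 to 22.2) in the HFD section, so its log2 ratio was 1.86 (1.63 to 2.10). The modifier and its protease were thus both higher in the HFD section, and their intervals for this ratio do not overlap.

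The Ifit genes encode proteins that bind foreign RNA or one another. Ifit1, which binds RNA whose cap lacks the methylation of host RNA, was at 4.96 CPM (4.18 to 5.84) in the NCD and 10.5 CPM (9.74 to 11.2) in the HFD section. Ifit3 was at 5.17 CPM (4.37 to 6.06) and 12.2 CPM (11.4 to 13.02). The intervals of their log2 ratios, 1.08 (0.82 to 1.35) and 1.24 (0.99 to 1.498), overlap. Ifit2 rests on 18 UMIs in the NCD and 155 in the HFD section, 0.620 CPM (0.367 to 0.980) and 2.15 CPM (1.82 to 2.52), and its ratio of 1.79 (1.09 to 2.59) is the least precise of the 9.

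Rsad2 encodes viperin, an enzyme that makes a nucleotide which ends viral RNA chains. It was at 7.06 CPM (6.13 to 8.10) in the NCD and 12.2 CPM (11.4 to 13.04) in the HFD section, which gives a log2 ratio of 0.79 (0.57 to 1.02). Oasl2 belongs to the family of oligoadenylate synthetases, which respond to double-stranded RNA. It had 39 UMIs in the NCD section, 1.34 CPM (0.955 to 1.84), and 435 in the HFD section, 6.03 CPM (5.48 to 6.63). Its log2 ratio, 2.17 (1.69 to 2.68), was the highest of the 9 by its point value, although its interval overlaps those of Ifit2 and Usp18.

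Bst2 encodes tetherin, which holds budding virus particles at the cell surface. It gave most UMIs of the list, 4857 of 6464 in the NCD and 17188 of 25895 in the HFD section. Its level was 167 CPM (163 to 172) and 238 CPM (235 to 242), and its log2 ratio was 0.51 (0.47 to 0.56). Irf7 encodes the transcription factor that amplifies the expression of interferon genes. It was at 21.1 CPM (19.4 to 22.8) in the NCD and 33.9 CPM (32.6 to 35.3) in the HFD section, a ratio of 0.69 (0.56 to 0.82). These are the lowest ratios of the list, and their intervals lie below those of Isg15, Ifit2, Ifit3, Oasl2 and Usp18.

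**Figure D1:**
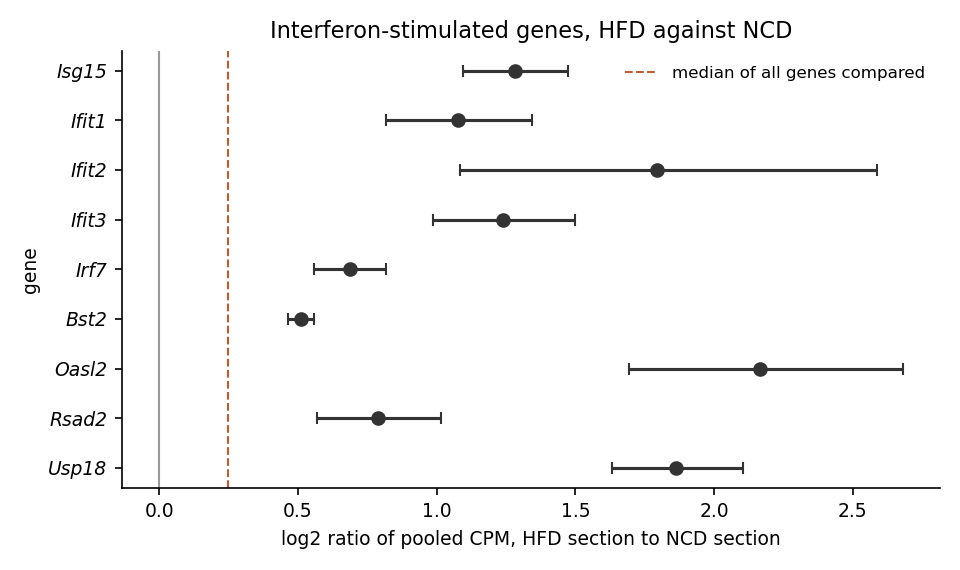
Log2 ratio of pooled CPM in the HFD section to the NCD section for each of the 9 genes, with 1 section per group. Points are ratios, bars exact 95% intervals of counting error, and the dashed line the median of all genes compared, 0.25; each bar lies to the right of that line.

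Of the 9 members, 6 had a log2 ratio of at least 1, beside 11.9% of the 12919 genes that reached 50 UMIs when both sections were added. None had a ratio of -1 or lower, beside 2.5% of those genes. The median over the members was 1.24 and over all genes 0.25. A ratio above 0, which all 9 members had, was also found for 70.5% of all genes. For single members, 1.95% of genes had a ratio at least as high as Oasl2, 3.03% as Usp18, 7.25% as Isg15, 21.7% as Irf7 and 31.0% as Bst2. Summed, the 9 members came to 223 CPM (217 to 228) in the NCD and 359 CPM (355 to 364) in the HFD section, with a log2 ratio of 0.69 (0.65 to 0.73). Without Bst2 the sum was 55.3 CPM (52.7 to 58.1) and 121 CPM (118 to 123), a ratio of 1.13 (1.048 to 1.203).

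All members had a ratio above 0 under each setting tried, except that Oasl2 gave no value once the UMIs of the spots off tissue had been subtracted. The number at or above a log2 ratio of 1 ranged from 4 to 7. Some single ratios moved outside their main interval. Without the 1% of spots with the most 9-gene UMIs, Ifit1 was at 1.57 and Rsad2 at 1.15. Without the member-rich spots described below, they were at 1.53 and 1.04. Both settings leave out spots chosen on the members, so they can move these ratios by themselves. With spots drawn to 300 UMIs, where 15 and 18 UMIs of Isg15 were left, its ratio was 0.18, and that of Irf7 was 0.04. With off-tissue UMIs subtracted, Isg15 was at 0.62, Usp18 at 2.46 and Rsad2 at 3.01, while Irf7 at 0.195 and Bst2 at 0.14 lay below the 0.25 that is the median of all genes without subtraction. When the CPM of single spots were averaged, Ifit3 was at 0.55 and Irf7 at 0.28. Drawing spots to 3000 UMIs gave 0.43 for Irf7 and 3.21 for Ifit2, of which 2 UMIs were left in the NCD section. The level of Irf7 in the NCD section differed with depth, at 33.3, 31.9, 29.4 and 16.8 CPM from the shallowest to the deepest of 4 parts of its spots, while the 4 HFD values lay between 33.3 and 35.6 CPM. The sum of the 8 members other than Bst2, Irf7 included, was at 81.1, 78.5, 71.8 and 46.55 CPM in these NCD parts. In the HFD parts it was at 126.9, 133.7, 117 and 115.8 CPM.

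Detection by spot followed depth. Isg15 had a UMI in 212 of 3692 NCD spots, 5.74% (5.01 to 6.54), and in 1122 of 3594 HFD spots, 31.2% (29.7 to 32.8). Once each spot with enough UMIs was drawn down to 1000, those shares were 1.02% (0.682 to 1.46) and 1.92% (1.498 to 2.43). Bst2 had a UMI in 49.6% of NCD and 94.96% of HFD spots at full depth, and in 15.3% (14.02 to 16.7) and 21.1% (19.8 to 22.5) after drawing. Any of the 8 members other than Bst2 was found in 25.1% and 79.9% of spots, and in 5.89% (5.06 to 6.82) and 10.1% (9.12 to 11.1) after drawing. At equal depth the shares of spots thus differed far less between sections than at full depth, and all 3 were higher in the HFD section.

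Whether the UMIs of a gene gather in few spots was described by a dispersion index. It compares the UMIs of each spot with the number expected from the depth of the spot, and is 1 where depth and Poisson counting give all of the variation. It grows with a gene's level and with depth, so it is set beside other genes of the same section and not compared between sections. Of the 7 members with at least 50 UMIs in the NCD section, 6 had an index of at least 1.2, beside 35.0% of 10495 genes, and the same 6 had at least 1.5, beside 10.5% of genes. Among HFD spots 4 of 9 members had an index of at least 1.2, beside 9.14% of 12468 genes, and the same 4 had at least 1.5, beside 3.37% of genes. Both limits were chosen after the indices had been seen. The median index over all genes was 1.12 in the NCD and 1.06 in the HFD section.

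Rsad2 had the highest index of the members in both sections, 4.87 in the NCD and 6.53 in the HFD section. Of the genes with a total within a factor of 2 of its own, 0.0962% and 0.116% had an index at least as high. Its 205 NCD UMIs lay in 115 spots, where depth alone gives 192, and its 10 richest spots held 45.9% of them with 0.631% of all UMIs. Its 880 HFD UMIs lay in 522 spots where 759 were expected, and the 10 richest spots held 20.8% of them. Rsad2 UMIs were therefore concentrated in both sections.

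Ifit1 had an index of 3.71 in the NCD and 3.08 in the HFD section. Its 10 richest NCD spots held 43.8% of its UMIs, and its 10 richest HFD spots 15.4%. Ifit3 had an index of 2.89 and 2.49, with 20 of its 150 NCD UMIs in a single spot where 0.171 was expected. Isg15 had an index of 2.01 and 1.79, and 18.8% and 6.41% of its UMIs lay in its 10 richest spots. With Rsad2, these are the members past both limits in each section.

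Usp18 had an index of 1.67 in the NCD section, where 11 of its 168 UMIs lay in 1 spot, and of 1.12 in the HFD section. Irf7 had 1.54 and 1.19. Bst2 had 1.15 and 1.12, and was found in 1833 NCD spots where 1878 were expected and in 3413 HFD spots where 3407 were. Among genes of like total, 39.98% and 50.4% had an index at least that of Bst2, so its UMIs were spread over spots much as those of other genes. Oasl2 had 1.053 and Ifit2 1.09 in the HFD section, while their 39 and 18 UMIs in the NCD section are too few for the index.

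The spots behind these indices were described with the 8 members other than Bst2, since Bst2 gives most UMIs and did not gather. A spot is called member-rich if it held at least 10 UMIs of the 8 genes and at least 5 times the number its depth gives, a rule written after the counts had been seen. Of 3692 NCD spots, 8 were member-rich. They held 254 of 1607 UMIs of the 8 genes, 15.8%, with 0.349% of all UMIs. Of 3594 HFD spots, 28 were member-rich and held 840 of 8707 UMIs, 9.65%, with 0.763% of all UMIs. Under the other rules tried, 4 to 23 NCD spots held 12.3% to 21.7% and 11 to 86 HFD spots held 6.62% to 15.7%. At the limit of 10 UMIs lay 1 NCD and 3 HFD spots, and 11 NCD and 8 HFD spots with 5 to 9 UMIs also had at least 5 times the expected number.

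The richest NCD spot had 33142 UMIs in all and 113 of the 8 genes, where 1.83 were expected. It held 37 UMIs of Rsad2, 22 of Ifit1, 20 of Ifit3, 15 of Isg15, 11 of Usp18, 7 of Irf7, 1 of Oasl2 and none of Ifit2, beside 5 of Bst2. The NCD spots ranked next had 31, 31 and 23 UMIs of the 8 genes, and each held 10 UMIs of Rsad2. The richest HFD spot had 40888 UMIs and 136 of the 8 genes, where 4.94 were expected. It held 35 UMIs of Rsad2, 27 of Isg15, 27 of Ifit3, 20 of Ifit1, 14 of Usp18, 10 of Irf7 and 3 of Oasl2, beside 16 of Bst2. HFD spots ranked next had 87, 84 and 62. Several members thus contributed to each of these spots, while the median member-rich spot held 20.5 UMIs in the NCD and 19 in the HFD section. Where the spots lie in the tissue is not known, because spot positions and images were not used here.

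**Figure D2:**
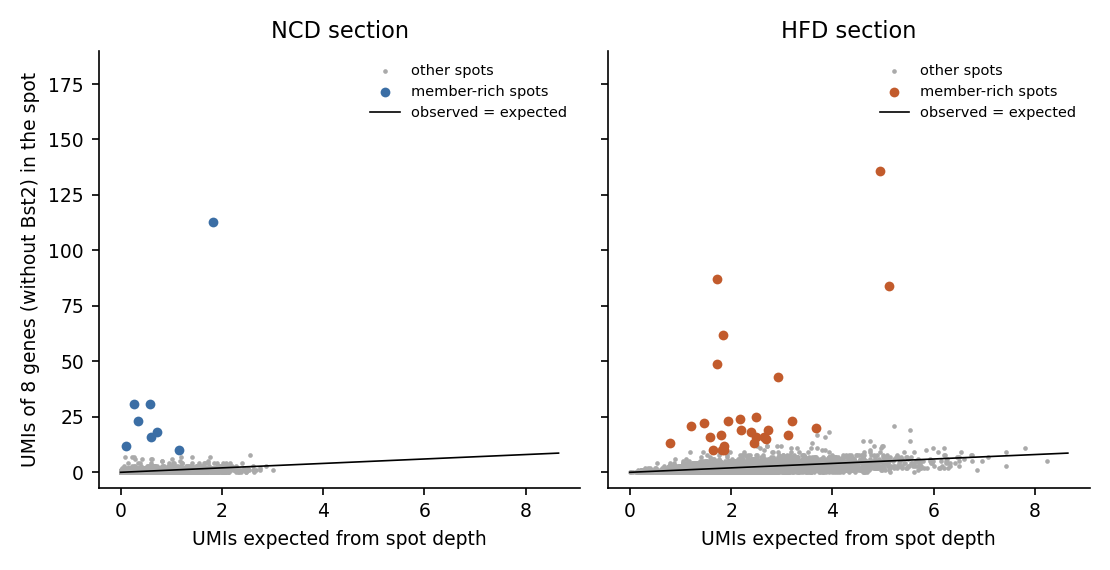
UMIs of the 8 genes other than Bst2 in each spot (vertical) against the number expected from the depth of the spot (horizontal), for the NCD section (left) and the HFD section (right). Coloured points are the 8 and 28 member-rich spots, the highest at 113 and 136 UMIs, and the line marks observed equal to expected.

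Since member-rich spots were chosen on these genes, each gene was also read in spots chosen by the same rule on the others alone. Rsad2 was at 840 CPM (659 to 1054) in the 7 NCD spots rich in the others and at 4.52 CPM (3.78 to 5.37) in the rest, a log2 ratio of 7.54 (7.10 to 7.96). In 16 HFD spots it was at 604 CPM (522 to 696) against 9.55 CPM (8.85 to 10.3), a ratio of 5.98 (5.75 to 6.22). Ifit1 gave ratios of 7.61 (7.09 to 8.12) in the NCD and 4.82 (4.53 to 5.11) in the HFD section. For Ifit3 they were 6.52 (5.90 to 7.11) and 4.84 (4.56 to 5.10), and for Isg15 5.91 (5.37 to 6.41) and 3.62 (3.35 to 3.88). Of the UMIs in chosen NCD spots, the richest spot alone held 37 of 74 for Rsad2 and 22 of 50 for Ifit1. It held 20 of 30 for Ifit3 and 15 of 38 for Isg15. A UMI was found in 6 of 7 chosen NCD spots for Rsad2, 6 of 6 for Ifit1 and Isg15, and 5 of 6 for Ifit3. The intervals take UMIs of the same spot as independent. These 4 genes were therefore high where the others were, with NCD ratios that rest on few spots.

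Usp18 gave 5.01 (4.19 to 5.74) in the NCD and 2.13 (1.72 to 2.51) in the HFD section. Its NCD value rests on 17 UMIs in the chosen spots, 11 of them in the richest spot. Irf7 was at 2.58 (1.51 to 3.47) and 1.09 (0.65 to 1.49), with its NCD value on 10 UMIs, 7 of them in the richest spot. Ifit2 rests on 2 UMIs in such NCD spots, with 5.16 (1.99 to 7.25), and on 11 in HFD spots, with 3.31 (2.28 to 4.19). For Oasl2 a single NCD UMI gave 2.91 (-2.43 to 5.48), and 15 HFD UMIs gave 2.26 (1.41 to 2.99). Bst2 was at 0.31 (-0.38 to 0.93) in the NCD and 0.59 (0.38 to 0.80) in the HFD section. The interval of Bst2 and that of Oasl2 in the NCD section include 0, and a difference there was not detectable at this depth.

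**Figure D3:**
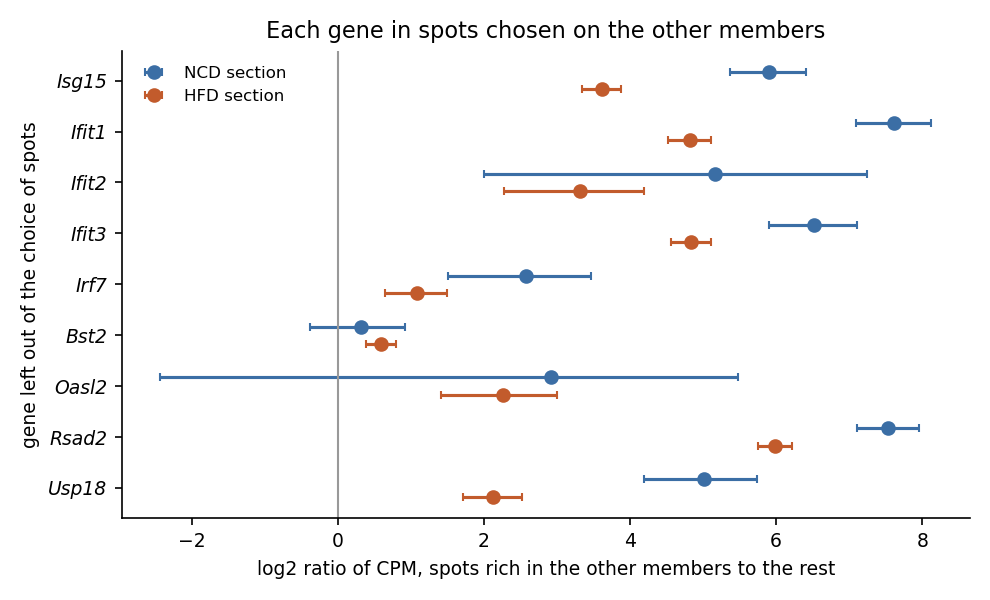
Log2 ratio of the CPM of each gene in spots rich in the other members to its CPM in the remaining spots, for the NCD section (blue) and the HFD section (orange), with exact 95% intervals of counting error. Rsad2, Ifit1, Ifit3 and Isg15 lie between 5.91 and 7.61 in the NCD section, and Bst2 lies at 0.31 and 0.59.

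At full depth, different members met in a spot less often than independent Poisson counts give, a number that does not allow for members gathered in fewer spots. Spots with at least 2 different members numbered 725 in the NCD section where 862 were expected from independent counts, a ratio of 0.841 (0.781 to 0.904), and 2812 against 2961 in the HFD section, 0.9497 (0.915 to 0.986). With spots drawn to 1000 UMIs the direction turned in the NCD section, where the ratio was 1.22, and the HFD ratio was 0.995. With spots drawn to 3000 UMIs it did not turn, with ratios of 0.791 and 0.937. At least 5 of the 9 members were found in 16 NCD spots against 13.3, a ratio of 1.21 (0.689 to 1.958), and in 344 HFD spots against 464, a ratio of 0.741 (0.665 to 0.824). Of the 8 genes other than Bst2, at least 5 were found in 7 NCD spots where 1.65 were expected, a ratio of 4.26 (1.71 to 8.77). HFD spots with at least 5 of the 8 numbered 138 against 142, a ratio of 0.973 (0.817 to 1.15). An excess at 5 members was thus found for the 8 genes in the NCD section but not for the 9, nor in the HFD section.

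Residuals from the depth expectation were also correlated between members, as a description, over 2852 NCD and 3590 HFD spots with at least 1000 UMIs. Spots of a section share a library and their counts are sparse. Over all 36 pairs the median Pearson r was 0.07 in the NCD and 0.12 in the HFD section. The 6 pairs among Isg15, Ifit1, Ifit3 and Rsad2 had medians of 0.61 and 0.52, and Ifit1 with Rsad2 had 0.73 and 0.70. These 4 genes were picked because they gather in the same spots, so a high r among them restates that choice. Without the member-rich spots the medians of the 6 pairs were 0.14 and 0.10, but those spots were chosen on the sum of these genes, so leaving them out lowers r by construction. The 8 pairs with Bst2 had medians of 0.03 and 0.07.

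Genes outside the list whose residuals were most like those of the 9-gene sum were ranked by the same r. Among the first 10 over HFD spots were Cmpk2 with 0.57, Cxcl10 with 0.55, Oasl1 with 0.49, Ifit3b with 0.45, Gbp6 with 0.26, Gbp2 with 0.24, Rnf213 with 0.24, Ifi47 with 0.22 and Irgm1 with 0.19, among 10046 genes with a median of 0.005. Over NCD spots the first 10 were Cxcl10 with 0.24, Ifi47 with 0.21, Irgm1 with 0.21, Gbp6 with 0.19, Tgtp1 with 0.18, AW112010 with 0.17, Parp14 with 0.15, Igtp with 0.13, Irgm2 with 0.11 and Iigp1 with 0.11, among 7035 genes with a median of 0.002. Cmpk2, Ifit3b and Oasl1 had fewer than the 200 UMIs needed for this ranking in the NCD section. Without the member-rich spots, a choice that again lowers r by construction, it was 0.10 for Cmpk2 and 0.09 for Cxcl10 in the HFD section and 0.09 for Cxcl10 in the NCD section.

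The genes that lead the 5% of spots with the highest 9-gene residual were also read. In the 180 HFD spots Cmpk2 led with a log2 ratio to the rest of 3.02 (2.71 to 3.32), followed by Ifit3b with 2.97, Cxcl10 with 2.41, Oasl1 with 2.40, Gbp6 with 1.52, Gbp3 with 1.38, Phf11b with 1.32, Herc6 with 1.24, Gbp2 with 1.23 and Ifi44 with 1.16. In the 143 NCD spots Cxcl10 led with 1.958 (1.39 to 2.48). There it was followed by Ighm with 1.70, Iglc1 with 1.47, Jchain with 1.44, S100a9 with 1.41, Gbp6 with 1.37, Igkc with 1.36, Ifi47 with 1.29, Stim2 with 1.28 and Arhgdib with 1.27. The NCD leaders thus include immunoglobulin genes and a neutrophil gene beside interferon-linked genes.

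Markers of cell types were read in the member-rich spots. In the NCD section these spots held 13 of 470 UMIs of neutrophil markers, 128 CPM (68.4 to 220) against 15.8 CPM in the rest. They held 3 of 113 UMIs of monocyte markers, a log2 ratio of 2.96 (0.66 to 4.55). Those of the HFD section held 14 of 702 UMIs of monocyte markers, a ratio of 1.40 (0.53 to 2.16), and 9 of 874 of neutrophil markers, a ratio of 0.44 (-0.70 to 1.37). Of these 14 monocyte marker UMIs, 10 were of Ccr2 and lay in 5 of the 28 spots. The list for plasmacytoid dendritic cells gave none of 344 UMIs there in the NCD and 7 of 998 in the HFD section, but 302 and 838 of its UMIs are of Tcf4, which other cells express too. Kupffer cell markers were at 316 CPM against 422 CPM in the NCD and at 547 CPM against 555 CPM in the HFD section, with ratios whose intervals include 0. Red blood cell markers gave 0.15 (0.05 to 0.26) and 0.35 (0.26 to 0.45), and hepatocyte markers -0.09 (-0.12 to -0.06) and -0.06 (-0.07 to -0.04). Plasma cell markers gave -1.86 (-3.17 to -0.81) in the NCD section, on 7 UMIs, and -0.215 (-0.58 to 0.13) in the HFD section. Dendritic cell markers gave -0.64 (-1.42 to 0.04) in the NCD section, on 17 UMIs, and 0.40 (0.25 to 0.55) in the HFD section. T cell markers gave 13 of 902 UMIs in the HFD section, a ratio of 0.93 (0.01 to 1.71), and none of 517 in the NCD section. Pericentral markers went opposite ways, with 0.24 (0.16 to 0.32) in the NCD and -0.11 (-0.16 to -0.06) in the HFD section. Summed markers of monocytes, on few UMIs, and of red blood cells were thus higher in member-rich spots of both sections. For monocytes the HFD value rests mostly on Ccr2. The part of these cells in the members' counts was not tested.

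The 9-gene sum was also compared between spots rich in a marker list, the 10% with its highest summed CPM among spots with at least 1000 UMIs, and the remaining spots. For 7 of 17 lists the sum was higher in marker-rich spots of both sections, with intervals above 0. For dendritic cell markers, led by Cd74, the log2 ratio was 0.37 (0.23 to 0.50) in the NCD and 0.12 (0.06 to 0.17) in the HFD section. Cd74 gave 4820 of 7602 NCD and 23668 of 36311 HFD UMIs of this list, so the ratio rests mostly on that gene. Endothelial markers, led by Clec4g, gave 0.35 (0.18 to 0.51) and 0.08 (0.01 to 0.14), and NK cell markers, led by Nkg7, gave 0.33 (0.23 to 0.43) and 0.12 (0.07 to 0.18). Kupffer cell markers gave 0.24 (0.09 to 0.39) and 0.20 (0.15 to 0.26). Stellate markers gave 0.22 and 0.07, macrophage markers 0.22 and 0.12, and neutrophil markers 0.19 and 0.11. The size of several ratios depended on the share of spots called rich and on depth, and all stayed above 0. With the top 20% the NCD ratio was 0.11 for endothelial, 0.04 for macrophage and 0.11 for Kupffer cell markers, and the HFD ratio was 0.06 for NK cell and 0.07 for neutrophil markers. With the top 5% the HFD ratio for endothelial markers was 0.01, while that of stellate markers rose to 0.17 and the NCD ratios rose to 0.49 for NK cell, 0.40 for neutrophil and 0.37 for macrophage markers. In spots with at least 3000 UMIs the NCD ratio was 0.11 for Kupffer cell, 0.12 for macrophage and 0.44 for NK cell markers. Without the member-rich spots 4 of the 7 lists kept intervals above 0 in both sections: dendritic cell, Kupffer cell, stellate and macrophage markers. Neutrophil markers then gave -0.006 (-0.12 to 0.10) in the NCD section, while endothelial markers gave 0.04 (-0.03 to 0.10) and NK cell markers 0.04 (-0.02 to 0.10) in the HFD section. As those spots were chosen on members, leaving them out can lower or raise such ratios by itself. Without Bst2, which gives most UMIs of the sum, 6 lists had intervals above 0 in both sections. The NCD ratio was then 0.82 for endothelial, 0.81 for NK cell, 0.80 for Kupffer cell, 0.65 for neutrophil and 0.395 for macrophage markers. Over HFD spots these lists gave 0.13, 0.17, 0.33, 0.24 and 0.12. Monocyte markers were then added with 0.42 (0.11 to 0.70) and 0.29 (0.20 to 0.39). Those of dendritic cells gave 0.71 in the NCD and 0.07 (-0.03 to 0.17) in the HFD section. Those of stellate cells gave 0.10 (-0.26 to 0.44) and 0.01 (-0.10 to 0.11). With neither Bst2 nor the member-rich spots, the lists above 0 in both sections were the 4 named before, and stellate markers were so by little, with 0.36 (0.002 to 0.70) in the NCD section. Then NK cell markers gave 0.16 (-0.07 to 0.38) and -0.085 (-0.195 to 0.02), neutrophil markers -0.09 (-0.33 to 0.15) over NCD spots, endothelial markers 0.02 (-0.10 to 0.14) over HFD spots, and monocyte markers 0.30 (-0.04 to 0.63) and 0.12 (0.02 to 0.23). Only spots with a marker UMI could count as marker-rich, which left 95 NCD spots for monocyte, 91 for B cell, 211 for neutrophil and 242 for NK cell markers, and 197 HFD spots for B cell markers. Spots rich in hepatocyte markers had less of the 9 members in both sections, with -0.30 (-0.42 to -0.18) and -0.27 (-0.32 to -0.21). Without Bst2 these ratios were -0.68 and -0.48.

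For other lists the interval of the 9-gene ratio lay off 0 in 1 section only. T cell markers gave 0.20 (0.10 to 0.31) in the NCD section, and plasmacytoid dendritic cell markers, mostly Tcf4, gave -0.14 (-0.24 to -0.04), which was -0.003 with the top 5% of spots. This plasmacytoid ratio was -0.53 without Bst2, and -0.24 (-0.47 to -0.02) with neither Bst2 nor the member-rich spots. The T cell ratio was 0.52 with the top 5%. Over HFD spots monocyte markers gave 0.15 (0.10 to 0.21), those of lipid-associated macrophages 0.11 (0.05 to 0.17) and those of plasma cells, where 8120 of 10177 UMIs are of Xbp1, a gene hepatocytes express, 0.10 (0.03 to 0.17). The last was -0.085 when only the top 5% of spots were called rich. Leaving out member-rich spots changed some of this: plasma cell markers gave 0.05 (-0.02 to 0.12) in the HFD and 0.20 (0.06 to 0.34) in the NCD section, and plasmacytoid dendritic cell markers -0.07 (-0.17 to 0.03) in the NCD section. T cell markers over NCD spots, and those of monocytes and lipid-associated macrophages over HFD spots, kept intervals above 0. Lists for bile duct, B cells, red blood cells, and smooth muscle and capsule had intervals that include 0 in both sections. Bst2 weighs most in these ratios, and the 8 other members gave different ones. For them B cell markers gave -0.40 (-0.80 to -0.03) in the NCD and 0.21 (0.09 to 0.32) in the HFD section, but without the member-rich spots these were -0.14 (-0.54 to 0.23) and 0.02 (-0.10 to 0.15), the latter with 1 of 197 marker-rich spots left out. Red blood cell markers gave 0.30 (0.07 to 0.51) and -0.23 (-0.36 to -0.10), and without those spots 0.30 (0.06 to 0.54) and -0.185 (-0.32 to -0.05). Over HFD spots bile duct markers, mostly Spp1, gave 0.11 (0.02 to 0.20) and those of smooth muscle and capsule -0.13 (-0.25 to -0.02), which became -0.05 (-0.145 to 0.05) and -0.12 (-0.24 to -0.004). The 8-gene intervals include 0 for T cell markers in the NCD section, 0.18 (-0.04 to 0.39), which was 0.47 (0.25 to 0.69) without the member-rich spots, and for lipid-associated macrophages in the HFD section, 0.10 (-0.003 to 0.20). Depth differed as well: the median was 2942 UMIs in NCD spots rich in endothelial markers and 7427 in the rest, and 15083 against 19052 in the HFD section. The part of depth and of these cells in the ratios was not tested.

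The levels of the markers differ between the sections too. Red blood cell markers were at 6738 CPM in the NCD and 1292 CPM in the HFD section, bile duct markers at 50.9 and 203 CPM, lipid-associated macrophage markers at 38.8 and 129 CPM, and plasma cell markers at 249.5 and 141 CPM. Of the bile duct UMIs, 1263 of 1478 in the NCD and 13474 of 14610 in the HFD section are of Spp1. The paper gives Spp1 among genes characteristic of its macrophages associated with steatohepatitis. Summed macrophage markers, most abundant Lyz2, were at 119 CPM in the NCD and 292 CPM in the HFD section. Dendritic cell markers were at 262 and 504 CPM, Kupffer cell markers at 421 and 555 CPM, stellate markers at 249 and 487 CPM, and endothelial markers at 177 and 251 CPM. Monocyte markers were at 3.89 and 9.73 CPM, while NK cell markers were at 11.0 and 7.92 CPM and neutrophil markers at 16.2 and 12.1 CPM, with Ly6g at 0 in the HFD section. Their part in the members' higher level in the HFD section was not tested.

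Single members differed in the spots they shared with markers. In spots rich in macrophage markers Irf7 was at 38.6 CPM over NCD spots against 19.95 CPM in the other spots, a log2 ratio of 0.95 (0.53 to 1.35), and in the HFD section the ratio was 0.35 (0.17 to 0.53). Rsad2 in the same spots gave -0.84 (-2.30 to 0.31) and -0.05 (-0.39 to 0.28). Without the member-rich spots Irf7 still gave 0.98 (0.56 to 1.38) and 0.35 (0.16 to 0.53). Rsad2 was higher in spots rich in NK cell markers, with 1.42 (0.96 to 1.86) and 0.77 (0.50 to 1.03), in neutrophil-rich spots, with 1.35 and 0.54, and in monocyte-rich spots, with 0.88 and 0.83. Without the member-rich spots, however, all 6 of these intervals include 0, and the NK ratios were -0.32 (-1.28 to 0.52) and -0.11 (-0.53 to 0.28). Those spots were chosen partly on Rsad2, so leaving them out lowers its level by construction. Other lists gave intervals above 0 without those spots too. Irf7 gave 1.26 (0.87 to 1.62) and 0.48 (0.30 to 0.65) for Kupffer cell and 0.87 (0.46 to 1.26) and 0.26 (0.08 to 0.45) for dendritic cell markers, and 0.61 (0.09 to 1.08) and 0.26 (0.08 to 0.44) for stellate markers. Rsad2 gave 0.46 (0.10 to 0.81) for Kupffer cell markers in the HFD section and 1.15 (0.26 to 1.94) for plasma cell markers in the NCD section, but -0.54 (-1.09 to -0.04) for plasmacytoid dendritic cell markers over HFD spots. Irf7 was thus higher in spots rich in macrophage, Kupffer cell, dendritic cell and stellate markers in both sections. Its NCD level was also lower in the deepest spots, and the part of depth in these ratios was not tested.

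Along the lobule, spots were ranked by their share of pericentral among pericentral and periportal marker UMIs and divided into 5 parts. The 9-gene sum was at 227 CPM in the most pericentral and 202 CPM in the most periportal NCD part, a log2 ratio of 0.17 (0.04 to 0.29). For HFD spots it was at 348 and 337 CPM, a ratio of 0.05 (-0.01 to 0.10), and the middle part was highest by its point value in both sections, with 232 CPM (221 to 244) in the NCD and 395 CPM (384 to 406) in the HFD section. Bst2 was at 183 and 155 CPM in those NCD parts, a ratio of 0.25 (0.10 to 0.39), and the ratio of the other 8 members was -0.13 (-0.40 to 0.15). Irf7 was lower in the pericentral NCD part, at 16.5 CPM against 22.2 CPM, a ratio of -0.43 (-0.86 to -0.002), while the HFD ratio was 0.09 (-0.08 to 0.26). Median depth was 7886 UMIs in the pericentral and 4029 in the periportal NCD part, and 17798 and 27669 in the HFD section. The part of depth in these ratios was not tested. Rsad2 was lower in the pericentral part of the HFD section, at 8.26 CPM against 12.5 CPM, a ratio of -0.59 (-0.93 to -0.27), beside 0.15 (-0.67 to 1.01) in the NCD section. Ifit3 was higher in that HFD part, at 13.3 CPM against 10.4 CPM, with 0.36 (0.06 to 0.65), beside 0.12 (-0.84 to 1.11) in the NCD section.

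Other genes of the pathway were read by list. Of 21 interferon ligand genes in the tables, Ifng had 1 UMI in the NCD and 4 in the HFD section, Ifnz had 0 and 2, and the others had none. A count of 0 does not show absence at this depth. No ligand UMI lay in a member-rich spot. Those spots held 0.349% of all NCD and 0.763% of all HFD UMIs, so counts this low cannot show where ligands lie.

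Among receptors and signalling genes, 2 of the 11 with at least 50 UMIs had a log2 ratio of HFD to NCD of at least 1, near the 11.9% of all genes, and the median was 0.55 beside 0.25 over all genes. The receptor genes Ifnar1 and Ifnar2 were at 0.17 (0.01 to 0.34) and 0.18 (0.11 to 0.26). The kinase gene Jak2 was at 0.17 (-0.03 to 0.38), and Tyk2 was at 0.84 (0.58 to 1.12). Stat2 was at 10.7 and 22.7 CPM, a ratio of 1.08 (0.90 to 1.26), and Irf9 at 16.9 and 28.9 CPM, a ratio of 0.77 (0.63 to 0.92). The receptor genes Ifngr1, Ifngr2 and Il10rb were at 0.19, 0.77 and 1.16 (0.93 to 1.39). The receptor for type I interferon thus differed little between sections beside the members that respond to it.

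Among genes that sense nucleic acids, 5 of 15 had a ratio of at least 1, beside 11.9% of all genes, with a median of 0.55 beside 0.25. Highest among those with at least 100 UMIs were Tlr7 with 1.70 (1.10 to 2.36), Ticam1 with 1.37, Ddx58 with 1.18, Dhx58 with 1.11 and Ifih1 with 0.86. Cgas, named after its value was seen, had 1.01 (0.01 to 2.16) on 10 and 50 UMIs. Lowest were Irf3 with -0.11 (-0.21 to -0.01), Zbp1 with 0.18, Tlr3 with 0.23, Tbk1 with 0.38 and Myd88 with 0.42.

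Among other genes of the type I response, 22 of 57 had a ratio of at least 1, beside 11.9% of all genes, and none of -1 or lower, with a median of 0.85 beside 0.25. Highest were Oas3 with 3.79 (2.54 to 5.43), on 5 and 172 UMIs, Ifi27l2b with 3.12 (2.96 to 3.29), Oas2 with 2.71, Ifi44 with 2.56 and Ifi27l2a with 2.13. Lowest were Isg20 with -0.33 (-0.58 to -0.09), Nmi with -0.09, Helz2 with -0.09, Sp100 with -0.04 and Trim25 with 0.15. Of the 57, 53 had a ratio above 0, beside 70.5% of all genes.

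Genes linked to interferon gamma were split, with 16 of 32 at a ratio above 0, fewer than the 70.5% of all genes. A ratio of 1 or more was found for 1, beside 11.9% of all genes, and of -1 or lower for 3, beside 2.5%, and the median was 0.00. The 3 were Tgtp1 with -3.51 (-3.78 to -3.24), Tgtp2 with -1.52 (-1.86 to -1.19) and Gbp4 with -1.13 (-1.46 to -0.81). Gbp10 with -0.77 and Igtp with -0.73 came next. Highest were Cxcl10 with 1.01 (0.82 to 1.204), Irf8 with 0.84, H2-D1 with 0.76, Ciita with 0.63 and Gbp8 with 0.59. Tgtp1 and Tgtp2 are near copies, so reads that match both limit what either value shows.

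Gene positions were read from GENCODE M21 (GRCm38), which holds 32158 of the 32285 identifiers and all 9 members. Ifit2, Ifit3 and Ifit1 lie on 1 strand of chromosome 19, with 7.11 kb between Ifit2 and Ifit3 and 52.1 kb between Ifit3 and Ifit1, a gap that also holds Ifit3b. Rsad2 lies 12.8 kb from Cmpk2 on chromosome 12, and Oasl2 lies 11.0 kb from Oasl1 on chromosome 5, each with no other coding gene between. Cmpk2, Oasl1 and Ifit3b, neighbours of members, are thus among the 4 genes most like the sum in the HFD section. Ifit3 and Ifit3b are alike in sequence, so how reads matching both were assigned is uncertain. Irf7 overlaps Phrf1 and Usp18 overlaps Gm44148, each on the opposite strand.

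Because Isg15, Ifit1, Ifit3 and Rsad2 were high in the same spots, the 250 bases before the start of each member were searched on both strands for the core of the ISRE, GAAANNGAAA, and for GAS, TTCNNNGAA. Sequences are from RefSeq on GRCm38.p6, where 8 of 9 members were matched, all but Usp18. The ISRE core was found before 5 of these 8, and in 2.98% of all 32851 starts in the table. GAS was found before 2 of the 8, Ifit2 and Bst2, and in 7.02% of all starts. The stretches around the ISRE cores follow, each on the strand of its gene, since this is the element through which type I interferon acts. Capitals mark the core, with overlapping copies joined, and in Ifit1, Ifit3 and Rsad2 it reads on the opposite strand. The stretch of Isg15 is chr4:156200835-156200936 on the minus strand and holds 3 overlapping cores. That of Ifit1 is chr19:34640745-34640853 on the plus strand with 2 cores, and that of Ifit3 is chr19:34583333-34583456 on the plus strand with 2. That of Bst2 is chr8:71537547-71537642 on the minus strand with 2 overlapping cores, and that of Rsad2 is chr12:26456523-26456612 on the minus strand with 1. A match describes the letters and does not show that a factor binds.
Isg15: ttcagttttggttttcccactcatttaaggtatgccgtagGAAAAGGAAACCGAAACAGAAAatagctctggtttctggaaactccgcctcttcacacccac
Ifit1: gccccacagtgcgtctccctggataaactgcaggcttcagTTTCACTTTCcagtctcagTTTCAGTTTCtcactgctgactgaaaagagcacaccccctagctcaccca
Ifit3: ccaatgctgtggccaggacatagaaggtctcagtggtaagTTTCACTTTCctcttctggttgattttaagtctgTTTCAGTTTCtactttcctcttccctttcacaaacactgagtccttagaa
Bst2: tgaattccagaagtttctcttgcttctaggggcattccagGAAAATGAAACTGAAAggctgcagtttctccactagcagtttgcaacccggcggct
Rsad2: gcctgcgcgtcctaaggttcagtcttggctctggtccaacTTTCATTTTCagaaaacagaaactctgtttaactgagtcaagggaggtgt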

How the data were processed

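The deposited tables hold raw UMI counts per gene and spot, which the authors made with Space Ranger 1.3.1 per the file headers (mm10 per the labels), with no normalization. The header of the table of all spots names Cell Ranger 4. The members and lists were chosen with earlier results of these data known. UMIs were summed over spots and divided by all their UMIs, with exact Poisson intervals. Ratios have exact conditional binomial and shares Clopper-Pearson intervals. With 1 section per group no test was made. Genes needed 50 UMIs over both sections for ratios and 50 in a section for the index. Ranked genes needed 200 UMIs in a section, and those named are among the first 10. Pathway genes needed 100 UMIs over both and could be named if among the 5 highest or lowest of their list, beside Stat2, Irf9, Ifnar1, Ifnar2 and any ligand with a UMI. Drawing down used seed 1. Chosen after the data were seen were the limits of 1.2 (tried first) and 1.5 for the index, the member-rich rule (after a Poisson tail below 1e-06) and results without member-rich spots. Calculations used scipy 1.17.1 with numpy 2.4.6, pandas 2.3.3, Python 3.11.15 and matplotlib 3.10.9. The calculations were tested on simulated data.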

Additional observations from a re-analysis of the deposited data

Results flagged for a closer look

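Spots off tissue, which the main comparisons do not use, held UMIs of the 9 members. In the NCD section 1300 such spots held 6870975 UMIs in all and 1338 of the members, 195 CPM (184 to 206) beside 223 CPM over tissue. For the HFD section 1398 such spots held 2177155 UMIs in all and 604 of the members, 277 CPM (256 to 300) beside 359 CPM. Both are given because the main comparisons leave these spots out, and with so many UMIs a level above 0 marks nothing by itself. In the NCD section Rsad2 was at 9.75 CPM (7.56 to 12.4) off tissue and 7.06 CPM over it, and 1 off-tissue spot held 11 UMIs of the 8 genes other than Bst2. Where these UMIs came from was not tested.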

How the results depend on the processing

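No paired analysis was possible because each group has 1 section. The 9-gene ratio of HFD to NCD stayed above 0 under all 9 alternatives, from 0.39 to 0.77. It was 0.61 as a mean of CPM per spot, 0.63 and 0.77 with spots drawn to 300 and 3000 UMIs, 0.73 without the 1% of spots with the most member UMIs, and 0.39 with off-tissue UMIs subtracted. The index, 2.39 in the NCD section, was 2.76 in spots with at least 1000 UMIs, 1.16 and 1.59 with spots drawn to 1000 and 3000 UMIs, 1.35 without the top 1% of spots, 5.85 without Bst2 and 1.35 without member-rich spots. In the HFD section, 2.91 became 1.11 and 1.301 after drawing, 2.84 without mitochondrial and the 20 most abundant genes in the total, 1.36 without the top 1%, 5.66 without Bst2 and 1.302 without member-rich spots. The ratio of spots with 2 or more members was 1.22 in the NCD section drawn to 1000, 0.947 without the top 1%, 0.670 without Bst2 and 0.933 without member-rich spots. For HFD spots it was 0.995 drawn to 1000 and 0.866 without Bst2. Among ratios whose interval did not include 0, the sign turned for the pericentral ratio without Bst2 in the NCD section (-0.13), for neutrophil markers without member-rich spots in the NCD section (-0.006) and for plasma cell markers with the top 5% of spots in the HFD section (-0.085). For single members, 57 of 80 values stayed within the main interval. For marker lists, 122 of 170 did, and ratios with intervals around 0 also changed sign, as for B cell markers in the NCD section without Bst2 (-0.40, from 0.02). Alternatives without member-rich spots were chosen after seeing the data. The cause was not tested. Ifit2 and Oasl2 in the NCD section are limited by depth.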
